A study of Mus musculus with 25 samples.

Results

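The 10 core clock loop genes are the mouse genes whose proteins form the transcription-translation feedback loop of the circadian clock: Arntl (which encodes BMAL1), Clock, Per1, Per2, Per3, Cry1, Cry2, Nr1d1 (REV-ERB alpha), Nr1d2 (REV-ERB beta) and Rora. On the array they were found by annotation, as every probe set (the group of short probes that reports 1 transcript) that carried 1 of these symbols and no other. This gave 13 probe sets for 10 genes, out of 10833 probe sets for 8251 genes with a single symbol. One probe set of each gene was bright enough to be tested, so 10 of 10 genes entered the comparisons, among 5706 genes tested. The other 3 probe sets, 2 of Cry1 and 1 of Rora, lay at the detection floor on 23 or 24 of 24 arrays and were used for no comparison.

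Lung RNA of C57BL/6 mice, an inbred laboratory strain, was measured on 24 Affymetrix MG-U74Av2 arrays in a study of alveolar loss under calorie restriction (CR, food cut by 2/3). CR lungs were taken 2, 4, 12, 24, 48, 72 and 96 h after the diet began, with 2 arrays at each time. Control lungs were taken at 0 h (4 arrays, numbered 1 and 2 with the letters a and b each) and at 2, 4 and 12 h (2 arrays each). The control descriptions call these mice always fed and yet hold the wording for the reduced diet, so their feeding is not certain; they are called fed here. Neither the age or sex of the mice nor the light schedule or hour of the day at which the diet began is given in the sources used here. It is not stated whether letters a and b were separate animals or repeat arrays of 1 RNA, so every p-value may measure only technical spread.

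In the clock loop, BMAL1 and CLOCK bind as a pair to E-box sequences and switch on the Per, Cry and Nr1d genes. PER and CRY proteins then accumulate, enter the nucleus and block that pair, while REV-ERB proteins repress Arntl and ROR proteins, among them RORA, activate it through a shared element. The loop runs in nearly all cells, the cells of the lung included, where food intake and glucocorticoid hormones can shift it and where Per1 is also switched on directly by the glucocorticoid receptor. In whole tissue, fewer cells of a type and less RNA per cell cannot be told apart.

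The loop's control sequences are shown for a reader to see which of these genes carry the loop's motifs near a start site. RefSeq promoter windows (GRCm38.p6, 250 bases before to 50 after a start site) were held for 9 of the 10 genes; Per2 had no entry. The 4 windows below carry matches to the E-box (CACGTG), the E-prime box (CACGTT), the D-box bound by DBP and TEF (TTATGTAA or TTACGTAA) or the core of the REV-ERB and ROR element (TAGGTCA or TGGGTCA), searched on both strands; capitals mark these matches. They lie at chr11:69098699-69098998, plus strand (Per1, its first window), chr10:85185005-85185304, minus strand (Cry1), chr4:151044616-151044915, minus strand (Per3), and chr7:113207261-113207560, plus strand (Arntl, its second window).
Per1: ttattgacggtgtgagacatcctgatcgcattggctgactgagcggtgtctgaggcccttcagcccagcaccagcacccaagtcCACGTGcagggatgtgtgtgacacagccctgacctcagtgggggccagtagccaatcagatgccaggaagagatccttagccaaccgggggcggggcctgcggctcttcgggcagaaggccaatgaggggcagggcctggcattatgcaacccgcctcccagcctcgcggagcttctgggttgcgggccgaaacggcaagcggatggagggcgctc
Cry1: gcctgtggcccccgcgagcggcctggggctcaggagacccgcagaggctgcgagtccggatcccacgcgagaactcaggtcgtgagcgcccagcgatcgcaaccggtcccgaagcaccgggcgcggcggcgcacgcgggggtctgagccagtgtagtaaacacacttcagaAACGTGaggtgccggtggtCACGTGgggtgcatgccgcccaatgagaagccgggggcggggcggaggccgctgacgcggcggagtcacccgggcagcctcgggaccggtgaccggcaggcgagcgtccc
Per3: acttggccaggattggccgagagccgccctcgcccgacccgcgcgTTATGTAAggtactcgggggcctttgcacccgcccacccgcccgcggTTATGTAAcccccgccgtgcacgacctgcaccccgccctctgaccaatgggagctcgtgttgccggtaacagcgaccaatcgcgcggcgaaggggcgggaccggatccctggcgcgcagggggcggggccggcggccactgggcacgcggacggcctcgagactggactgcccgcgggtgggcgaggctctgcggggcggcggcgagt
Arntl: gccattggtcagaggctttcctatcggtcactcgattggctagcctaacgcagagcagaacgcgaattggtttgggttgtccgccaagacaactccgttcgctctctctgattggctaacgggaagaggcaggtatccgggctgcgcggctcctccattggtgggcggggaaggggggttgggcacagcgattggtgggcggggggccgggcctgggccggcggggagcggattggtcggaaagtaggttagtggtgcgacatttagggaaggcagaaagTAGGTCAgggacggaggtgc

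The Per1 window holds 1 E-box, 166 bases before the start site. The Cry1 window holds an E-box 60 bases before the start and, on the other strand, an E-prime box 79 bases before it. The Per3 window holds 2 D-boxes of the same letters, 205 and 158 bases before the start, and the Arntl window holds a REV-ERB and ROR core 30 bases after it. Cry2 and Nr1d1 each had an E-prime box, 166 and 28 bases before their starts, and the windows of Clock, Nr1d2 and Rora matched none of these 4 motifs. Of all 32851 windows of this length in the table, 7.15% hold an E-box, 4.68% an E-prime box, 1.06% a D-box and 6.45% a REV-ERB and ROR core, against 2, 3, 1 and 1 of the 13 windows of the clock loop genes. No window of these genes held the half-site of the glucocorticoid response element (TGTTCT), which 19.0% of all windows hold. The cyclic AMP response element (TGACGTCA) was in 0 of the 13 windows and in 1.79% of all. Its half-site (TGACG), not marked by capitals above, was in 4 of the 13 and in 20.8% of all. It lay in both Per1 windows, 246 and 132 bases before the start, and in those of Cry1 and Cry2. A match is a description of the letters in the window and not a measured binding site.

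Several array features touch these results. The summed markers of alveolar type I, alveolar type II, club and endothelial cells were bright on all arrays, as the label lung requires. Single markers could be dim, such as the endothelial Pecam1, with means of 254 at fed 0 h and 251 at CR 24 to 96 h. Within a group and number, arrays a and b correlated at r = 0.940 to 0.976 over the tested probe sets, but for 10 of 24 arrays an array of another group was closer. The fed 0 h numbers stood apart from each other (r = 0.854 to 0.871), and 39.9% of 7440 probe sets were called between them. They are the control of the late and fed comparisons. For the clock loop genes, the late and fed 12 h calls are therefore also given against each number. Calls of other genes are given against all 4 fed 0 h arrays only. The highest signal of an array was 74440 to 99040 on 12 arrays (fed 0 h number 1, fed 12 h, and CR 2, 12, 24 and 48 h) and 31600 to 54310 on the other 12. Heart muscle markers (all 6 measured) summed to 23840 to 30390 at fed 0 h, to 14310 to 19750 at the later fed hours and to 11590 to 23610 at CR 24 to 96 h. They did not all move alike: from fed 0 h to CR 24 to 96 h the means were 9524 and 4142 for Myl7. They were 1175 and 1118 for Nppa and 1453 and 2086 for Myh6. B-cell markers (4 of 4 measured) summed to 2201 to 9229 at fed 0 h, 4514 to 6785 at the later fed hours and 1731 to 3118 at CR 24 to 96 h. Fed 0 h numbers 1 and 2 split in B-cell (8310 to 9229 against 2201 to 3685) and macrophage sums (42770 to 45900 against 16100 to 23980). Neutrophil (4311 to 5555 against 1792 to 2097) and erythroid sums (75160 to 80590 against 37010 to 39370) did too. Alveolar type II (137300 to 139900 against 81710 to 101000) and club sums (77680 to 90540 against 69510 to 75650) were higher in number 1. So were fat sums (2564 to 2720 against 1311 to 1439). Endothelial sums were lower in number 1 (9802 to 10610 against 16910 to 21260), and alveolar type I and heart muscle sums overlapped. At CR 24 and 48 h macrophage sums were 19550 to 23360 and alveolar type II sums 122100 to 146900. At CR 72 and 96 h they were 39810 to 43640 and 68630 to 88850. The Gapdh 3' to 5' ratio, a sign of RNA quality, was 1.76 to 2.02 at fed 0 h, 1.95 and 2.15 at CR 48 h and 1.01 to 1.66 on the other arrays. The part of these differences in the changes below, from fed 0 h or between other groups, was not tested.

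Values are probe set intensities scaled to a common array median, called signal here; the floor, under which a value counts as not measured, was 80.37. The fold changes are ratios of geometric means from 1 limma fit to all 24 arrays, with 95% confidence intervals, and a gene is said to have risen or fallen only at a two-sided Benjamini-Hochberg adjusted p under 0.05 over 7440 probe sets. Late CR stands for the mean of CR 24, 48, 72 and 96 h, which by the labelled hours share their time of day with fed 0 h, and early CR for the mean of CR 2, 4 and 12 h, each against the fed group of that hour. Late CR also follows longer restriction than CR 2, 4 and 12 h. Comparisons of these hours with late CR therefore cannot tell hour of day from time under restriction.

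**Figure D1:**
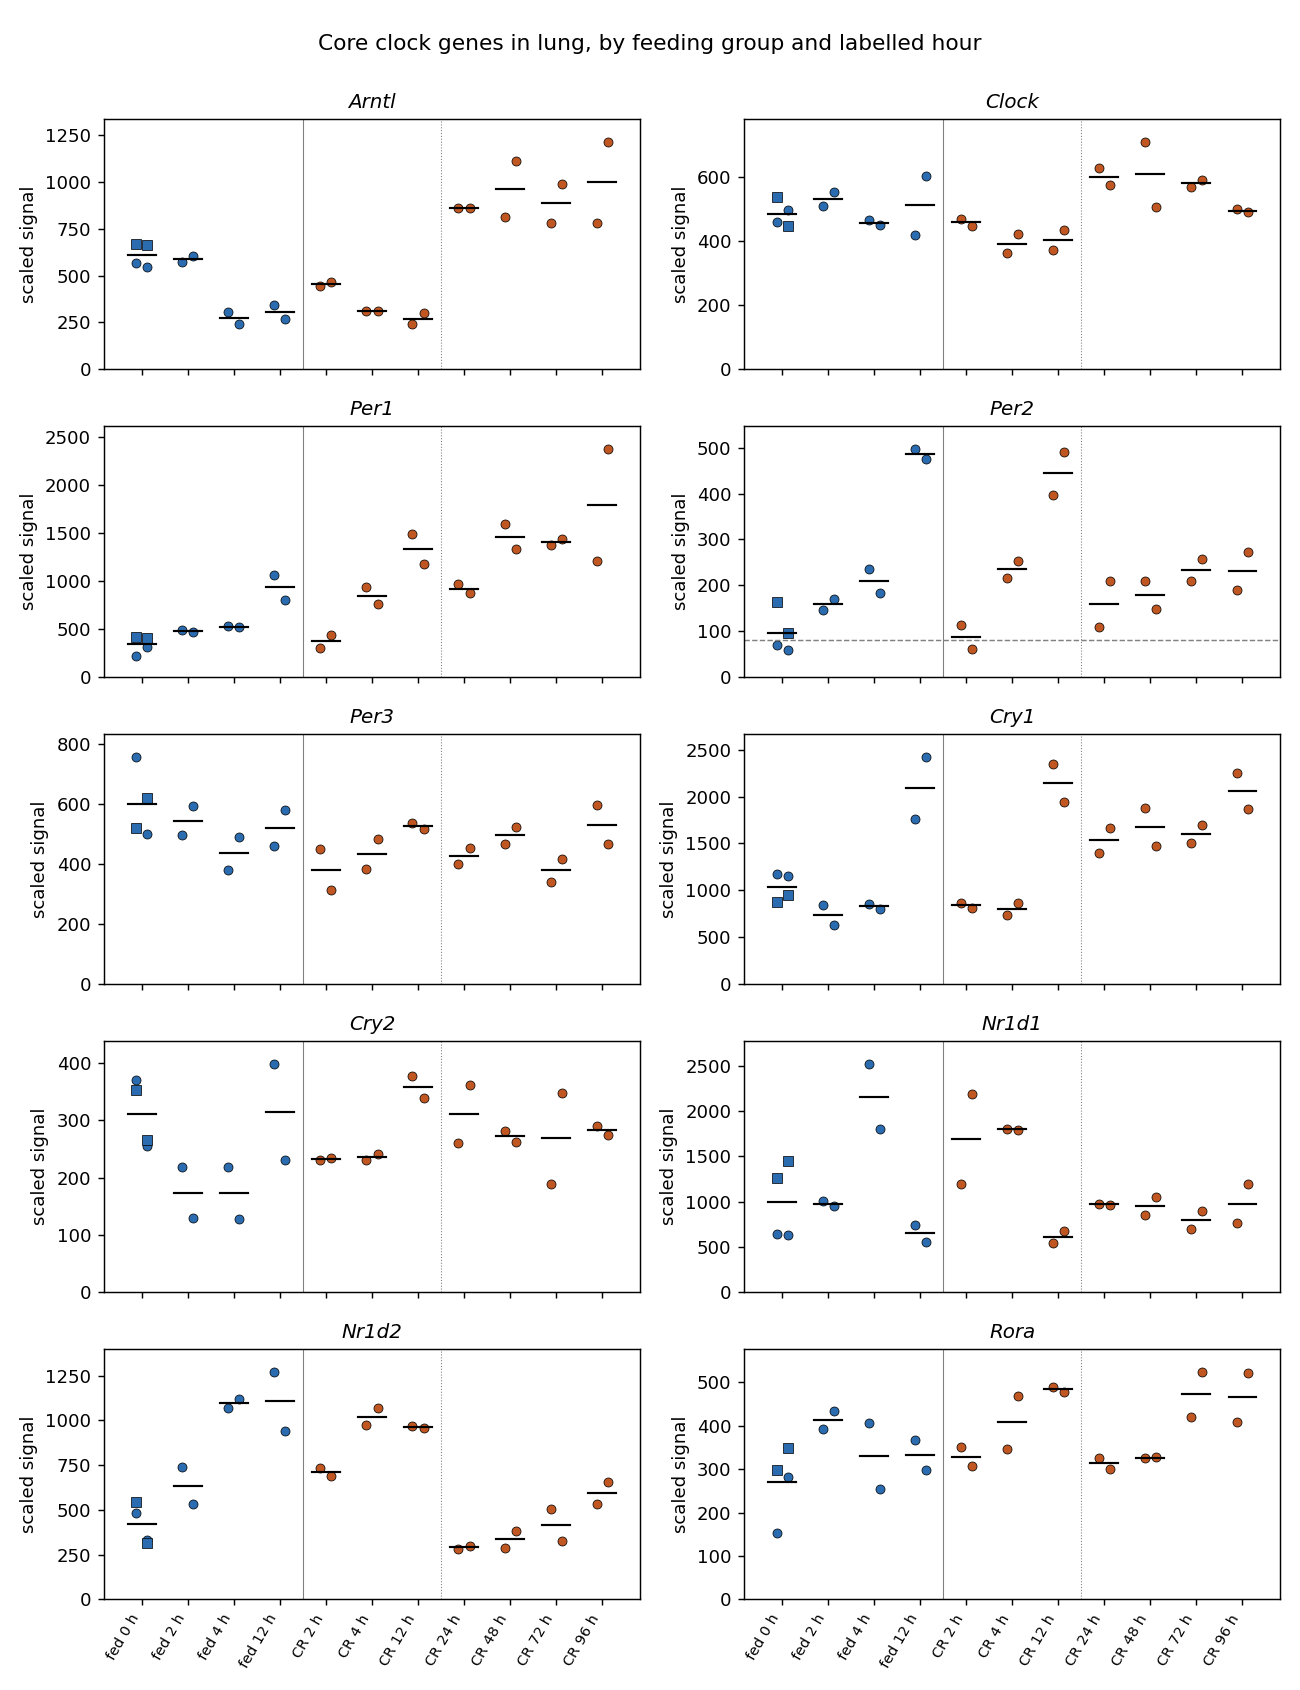
Signal of the tested probe set of each core clock gene (vertical axis, linear from 0) on each of the 24 arrays, by feeding group and labelled hour. Circles are arrays, squares the fed 0 h arrays of number 2, black bars the group means, blue fed and orange CR, and the dashed line in the Per2 panel is the floor of 80.37; Arntl and Per1 at CR 24 to 96 h stand above every fed 0 h array.

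Across the series, Per1, Per2, Nr1d2, Arntl, Nr1d1 and Cry1 varied most, and Clock, Per3, Rora and Cry2 least. The highest group mean was 5.31 times the lowest for Per1 and, with values under the floor set to it, at least 5.0 times for Per2. It was 3.82 times for Nr1d2, 3.71 times for Arntl, 3.57 times for Nr1d1 and 2.91 times for Cry1. For Cry2 the ratio was 2.07, for Rora 1.79, for Per3 1.58 and for Clock 1.55. The SD between arrays of a group was smallest for Clock (0.17 log2 units) and largest for Nr1d1 (0.41).

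Arntl and Clock are the activating arm of the loop. On the fed 0 h arrays Arntl stood at 567 (1a), 544 (1b), 668 (2a) and 662 (2b). At fed 2 h it stood at 573 and 602, at fed 4 h at 305 and 242, and at fed 12 h at 344 and 268. Thus both arrays at 4 h and at 12 h lay below every fed 0 h and fed 2 h array. Under CR, Arntl was 444 and 467 at 2 h, 312 and 310.2 at 4 h, and 239 and 298 at 12 h. At 24 h it was 861 and 863, at 48 h 812 and 1113, at 72 h 780.0 and 992, and at 96 h 779 and 1216. These 8 late arrays were all above the 4 fed 0 h arrays and above all 6 CR arrays of the first 12 h.

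From these levels, Arntl fell 2.24-fold from fed 0 h to fed 4 h (95% interval 1.65 to 3.03; limma adjusted p = 0.0134). It was 2.00-fold lower at fed 12 h than at fed 0 h (1.48 to 2.72; 0.019). Under CR, the 12 h level was 3.42-fold lower than the late CR mean (2.60 to 4.52; 7.73e-05). The late CR mean was in turn 1.51-fold above fed 0 h (1.22 to 1.87; 0.0114), with 8 of 8 arrays higher. That last call held against fed 0 h number 1 (log2 change 0.72; 0.00273) and missed the threshold against number 2 (0.46; 0.136), and it was also lost when array 1b of fed 0 h was left out (0.54; 0.0537). The fed 12 h call was lost without either fed 12 h array (−1.18 and 0.0842 without 1a, −0.82 and 0.153 without 1b). In order of group means, the 4 late CR groups came first and overlapped, followed by fed 0 h and fed 2 h, which overlapped, then CR 2 h. CR 4 h, fed 12 h, fed 4 h and CR 12 h came last, each overlapping the next in the order.

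Clock, the partner of BMAL1, ranged over all arrays only from 362 to 712. It was 448 to 539 at fed 0 h with a median of 480.1, and 492 to 712 at late CR with a median of 573, and these ranges overlapped. Its log2 change in the late CR mean was 0.23 (adjusted p = 0.233), and at CR 12 h against late CR it was −0.50 (0.153). The difference between the 12 h and 0 h fed levels was 0.05 (0.904). No comparison called Clock.

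Per1 encodes a repressor of the loop and is one of its fastest responding genes. On the fed 0 h arrays its signal was 220.3, 306, 416 and 404 (1a, 1b, 2a and 2b). It was 492 and 465 at fed 2 h, 525 and 514 at fed 4 h, and 1064 and 795 at fed 12 h. All 6 later fed arrays were above the fed 0 h arrays, and the 12 h pair was above all others. Under CR, Per1 was 300.2 and 436 at 2 h, 936 and 754 at 4 h, and 1486 and 1179 at 12 h. It was 961 and 873 at 24 h, 1586 and 1331 at 48 h, 1368 and 1431 at 72 h, and 1206 and 2371 at 96 h. The lowest of the 8 late arrays was more than double the highest fed 0 h array, and the signal at CR 96 h, array b, was the highest of all.

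Per1 rose 4.08-fold in the late CR mean (3.10 to 5.38; adjusted p = 1.08e-06). It was the only member called at each late time by itself, by 2.81-fold at 24 h (0.00515), 4.45-fold at 48 h (9.6e-05), 4.29-fold at 72 h (0.000117) and 5.18-fold at 96 h (1.6e-05). The differences between these 4 times did not pass an F test (adjusted p = 0.513). The late rise passed against fed 0 h number 1 (log2 change 2.36) and number 2 (1.70) and within either signal range (2.15 and 1.91). In fed mice Per1 also rose with the hour, by 2.82-fold from 0 h to 12 h (1.91 to 4.17; 0.00843), a call lost without array 1a of fed 12 h (log2 change 1.28; 0.168). Under CR no such difference was measured between 12 h and the late mean (log2 change −0.01, 95% interval −0.52 to 0.51, adjusted p = 0.994), where the levels were 1332 ± 217 (mean ± SD, 2 arrays) and 1391 ± 462 (8 arrays). These CR levels also differ in time under restriction.

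Per2 encodes a PER protein that joins CRY in the repressor complex, and it was dimmest at fed 0 h and CR 2 h. At fed 0 h it was 68.5, 58.4, 163 and 96.3, with both arrays of number 1 under the floor. It was 146 and 171 at fed 2 h, 236 and 182 at fed 4 h, and 497 and 475 at fed 12 h. Under CR it was 114 and 61.2 at 2 h, 216 and 254 at 4 h, and 398 and 491 at 12 h. The 12 h arrays of both diets were above every other array, and the fed and CR ranges at 12 h overlapped. The late CR arrays ran from 109 to 273 with a median of 209, and overlapped fed 0 h.

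Because 2 of 4 fed 0 h arrays were set to the floor, the estimated folds of Per2 against all 4 are lower bounds with respect to the floor only. The intervals give the spread of these estimates. Per2 was at least 4.84-fold higher at fed 12 h than at fed 0 h (adjusted p = 0.00347) and at least 1.93-fold higher in the late CR mean (0.018). The late call rests on number 1 of fed 0 h: against number 2 alone the log2 change was 0.63 (0.27), and the call was lost without either array of number 1 (0.84 each; 0.0753 and 0.0769). The fed 12 h call was lost without array 1a of fed 12 h (2.24; 0.0661). With fed 2, 4 and 12 h together as the control, the late change turned to −0.38 (0.363). At CR 12 h Per2 was 2.28-fold above late CR, an increase that did not pass (0.0774). It passed with array weights (0.0315), without the intensity trend (0.0438) and in the high signal range alone (log2 change 1.44; 0.0284).

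Per3, the third Period gene, had a narrow range, from 312 to 757 over all arrays. It was 499.7 to 757 at fed 0 h (median 569) and 339 to 595 at late CR (median 459), so the ranges overlapped. The log2 change of −0.39 in the late CR mean did not pass (adjusted p = 0.0893), and at fed 12 h against fed 0 h it was −0.19 (0.685). All 10 pairs of neighbours in the order of its 11 group means overlapped.

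Cry1 encodes a cryptochrome, which represses the BMAL1 and CLOCK pair. Its tested probe set has the suffix f, which Affymetrix gives to probes shared by related sequences, so other transcripts may add to it. At fed 0 h Cry1 was 1177, 1155, 879 and 955, at fed 2 h 842 and 630.2, at fed 4 h 859 and 802, and at fed 12 h 1761 and 2426. Under CR it was 865 and 814 at 2 h, 742 and 861 at 4 h, and 2342 and 1941 at 12 h. The late arrays read 1397 and 1667 at 24 h, 1873 and 1469 at 48 h, 1503 and 1701 at 72 h, and 2251 and 1865 at 96 h. Every array at 12 h of either diet and every late CR array was thus above every fed 0 h array, and the 2 h and 4 h arrays of both diets were lowest.

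Cry1 was 2.00-fold higher at fed 12 h than at fed 0 h (1.52 to 2.62; adjusted p = 0.0111), a call lost without array 1b of fed 12 h (log2 change 0.77; 0.121). In the late CR mean it rose 1.64-fold over fed 0 h (1.36 to 1.99; 0.00162), with 8 of 8 arrays higher. Of the single late times, 48 h (1.61-fold; 0.0399) and 96 h (1.98-fold; 0.00316) passed, and 24 h (1.48-fold; 0.106) and 72 h (1.55-fold; 0.0532) did not. The late rise passed against fed 0 h number 1 (log2 change 0.54; 0.00536) and number 2 (0.89; 0.000696). At CR 12 h Cry1 was 1.26-fold above late CR, which did not pass (0.384).

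Cry2, the second cryptochrome, ranged from 127 to 399 over all arrays and was not called in any comparison. It was 254 to 371 at fed 0 h, 188.6 to 362 at late CR, and 219 and 129 at fed 2 h. The log2 change was −0.14 in the late CR mean (adjusted p = 0.696) and −0.88 at fed 4 h against fed 0 h (0.27).

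Nr1d1, which encodes the repressor REV-ERB alpha, was highest at 4 h in fed mice and at 2 and 4 h under CR. It was 641 and 632 on the number 1 arrays of fed 0 h and 1263 and 1448 on those of number 2, so the 2 control numbers did not overlap. It was 1006 and 949 at fed 2 h, 2524 and 1799 at fed 4 h, and 742 and 552 at fed 12 h. Under CR it was 1199 and 2192 at 2 h, 1809 and 1790.0 at 4 h, and 537 and 674 at 12 h. The 8 late arrays ran from 698 to 1193 with a median of 926, between the 2 control numbers. The 4 h arrays of both diets were above every 12 h array and every fed 0 h array.

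The hour differences of Nr1d1 did not pass against all 4 fed 0 h arrays: from fed 0 h to fed 4 h it was 2.30-fold higher (1.44 to 3.65; adjusted p = 0.111), and over the 4 fed hours the F test gave 0.0708. From fed 0 h to fed 12 h the log2 change was −0.54 (0.405); it passed against fed 0 h number 2 alone (−1.08; 0.0134) and was 0.01 against number 1 alone (0.989). Nr1d1 was the only member that differed between the fed 0 h numbers, 2.12-fold lower in number 1 (1.46 to 3.09; 0.00245). Its late change was −0.03 log2 units against all 4 fed 0 h arrays (0.942). Against number 1 alone the change was 0.52 (0.0427), in the high signal range alone 0.58 (0.0384), and against number 2 alone −0.57 (0.0974), so its direction depended on the control number.

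Nr1d2 encodes the related repressor REV-ERB beta. It was 484, 333, 543 and 312 at fed 0 h, 737 and 531 at fed 2 h, 1071 and 1118 at fed 4 h, and 1273 and 939 at fed 12 h. Under CR it was 732 and 686 at 2 h, 972 and 1070.0 at 4 h, and 968 and 959 at 12 h. The late arrays read 279 and 301 at 24 h, 288 and 381 at 48 h, 504 and 324 at 72 h, and 532 and 656 at 96 h. In both diets the 4 h and 12 h arrays were above every fed 0 h and late CR array.

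Nr1d2 rose 2.69-fold from fed 0 h to fed 4 h (1.89 to 3.83; adjusted p = 0.0104) and was still 2.69-fold higher at fed 12 h (1.89 to 3.82; 0.00513). At CR 12 h it was 2.48-fold above the late CR mean (1.80 to 3.42; 0.00529). The fed 12 h call was lost without array 1a of fed 12 h (log2 change 1.21; 0.136), and the CR 12 h call without either CR 12 h array (1.3 and 0.103 without 1a, 1.32 and 0.0785 without 1b). The late CR mean and fed 0 h gave 408 ± 140 (8 arrays) and 418 ± 113 (4 arrays), a log2 change of −0.06 (−0.42 to 0.30; 0.81). With fed 2, 4 and 12 h together as the control, which differ from late CR in time of day, Nr1d2 was lower at late CR (−1.22; 3.39e-05).

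Rora encodes an activator of Arntl. Its tested probe set has the suffix s, for probes common to several transcripts. It was 153 to 348 at fed 0 h and 301 to 525 at late CR, and the ranges overlapped. The log2 change of 0.58 did not pass (0.16 to 1.0; adjusted p = 0.0528), although against fed 0 h number 1 alone it was 0.90 (0.00337). Against number 2 alone it was 0.26 (0.559). The lowest of all its values was array 1a of fed 0 h, at 153.

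**Figure D2:**
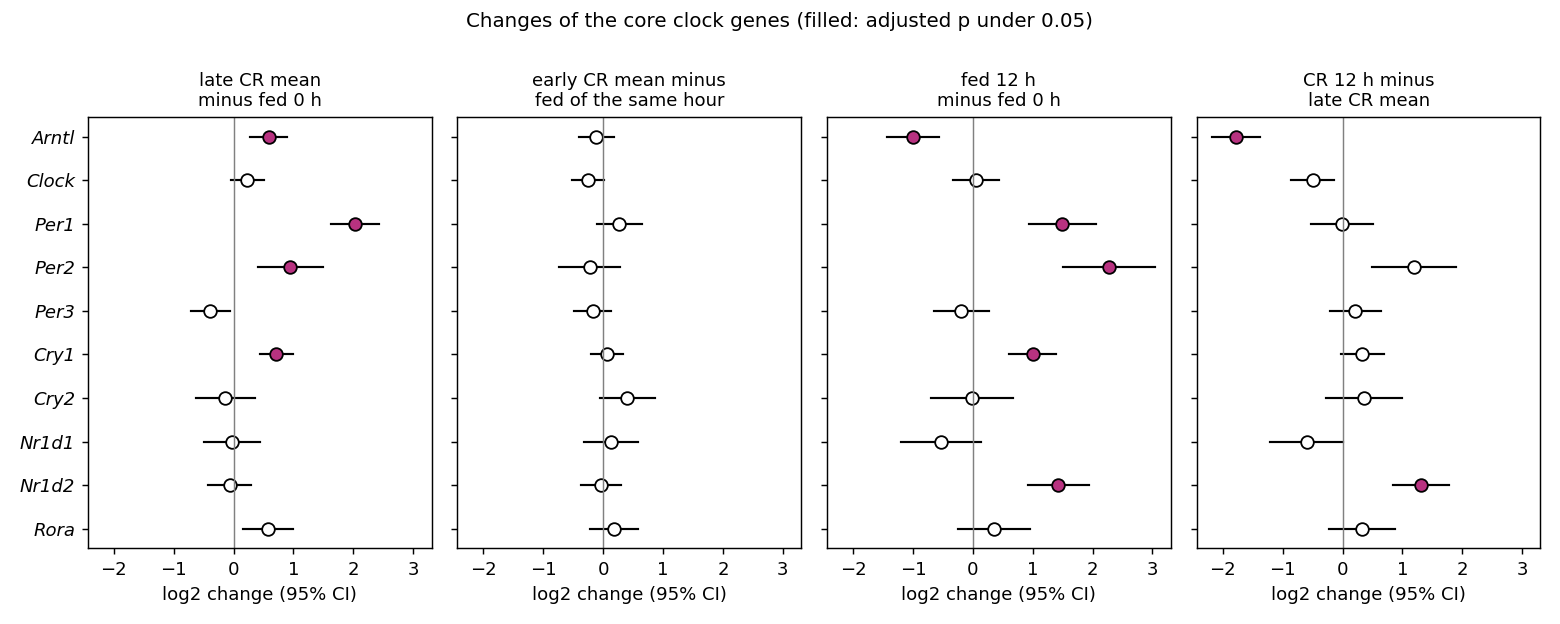
Log2 change (horizontal axis, points, with 95% confidence intervals as lines) of each core clock gene in 4 comparisons, from the limma fit to 24 arrays; filled points passed an adjusted p under 0.05. Per1 has the largest late change at 2.03 log2 units, no point is filled in the early comparison, and Arntl has the lowest value at CR 12 h against late CR, −1.78.

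Counted together, 4 of 10 genes rose in the late CR mean (Arntl, Per1, Per2 and Cry1) and 0 fell. Over all 7440 probe sets 18.1% were called in that comparison, and the median log2 change was 0.40 over the 10 genes and −0.01 over all. At single late times the members called were 1 at 24 h (2.82% of all probe sets called), 2 at 48 h (5.44%), 1 at 72 h (5.82%) and 2 at 96 h (6.49%). No member differed between the 4 late times by the limma F test, where 0.578% of probe sets were called; at an unadjusted p under 0.05 only Nr1d2 passed (0.00951). These comparisons share the fed 0 h arrays with each other and with the fed comparisons below.

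Against fed mice of the same hour, no member changed in the early CR mean (0.0269% of all probe sets called), with a median log2 change of 0.02 over the 10 genes. The limma adjusted p was 0.999 for each of the 10 genes, and at an unadjusted p under 0.05 also 0 passed. The widest of these intervals was that of Per2, from −0.74 to 0.28. At CR 2 h against fed 2 h and at CR 4 h against fed 4 h, where 0% of probe sets were called, and at CR 12 h against fed 12 h (0.148%), 0 members passed. At an unadjusted p under 0.05 these limma contrasts gave 0, 1 (Per1) and 0 members. At 2 h the highest signals were 78840 and 76230 on the CR arrays and 40910 and 47510 on the fed arrays. Alveolar type II sums at 2 h were 134300 to 134700 under CR and 71680 to 77510 in fed mice. Diet and signal range therefore cannot be told apart at 2 h, an hour that also enters the early CR mean. Some signals at 2, 4 and 12 h had gaps between groups of 2. At 4 h both CR arrays of Per1, 936 and 754, were above both fed arrays, 525 and 514. This difference was 1.62-fold, with a limma adjusted p of 1. At 2 h both CR arrays of Arntl, 444 and 467, were below both fed arrays, 573 and 602, by 1.29-fold (0.806). The same genes also had gaps the other way. Both CR arrays of Per1 at 2 h, 300.2 and 436, were below both fed arrays, 492 and 465. Both CR arrays of Arntl at 4 h, 312 and 310.2, were above both fed arrays, 305 and 242. At 12 h Per1 was again above fed under CR, and Arntl overlapped. Of the other genes, Clock, Per2, Per3 and Rora lay below both fed arrays at 2 h, and Cry2 and Nr1d1 above. At 4 h Clock and Nr1d2 lay below and Cry2 above, and at 12 h Rora lay above. The remaining pairs of groups overlapped. The share of all probe sets with such gaps was not counted, so the gaps are a description only.

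Within the fed mice, 5 of 10 genes differed between 0 and 12 h (1.92% of all probe sets called): Per1, Per2, Cry1 and Nr1d2 rose and Arntl fell. These 5 also passed against number 1 and against number 2 of fed 0 h. The log2 changes were −0.87 and −1.13 for Arntl, 1.82 and 1.16 for Per1, 2.60 and 1.96 for Per2, 0.83 and 1.17 for Cry1, and 1.44 and 1.41 for Nr1d2. None of the 5 passed with letters a and b averaged or with only the compared groups in the fit, and 1 of 5 (Cry1) passed without array 1a of fed 12 h. The median log2 change was 0.20 over the 10 genes and −0.04 over all probe sets. Between fed 0 and 2 h no member passed (0.0806% called), although 4 had an unadjusted limma p under 0.05 (Cry1, Cry2, Nr1d2 and Rora), and between 0 and 4 h Nr1d2 rose and Arntl fell (0.309% called). Over all 4 fed hours the F test called the same 5 genes as at 12 h (1.25% called), with adjusted p from 0.00475 for Cry1 to 0.0367 for Per1. Between the fed 0 h numbers 1 of 10 genes differed, against 39.9% of all probe sets.

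Within the CR mice, Nr1d2 was higher and Arntl lower at 12 h than in the late CR mean (1.47% of all probe sets called). At 4 h against late CR, a comparison chosen after the data were seen, Arntl was 2.94-fold lower (adjusted p = 9.29e-05), Cry1 2.12-fold lower (0.00121) and Nr1d2 2.62-fold higher (0.0013), with 1.92% of probe sets called. At 2 h against late CR, chosen in the same way, Arntl (2.01-fold; 0.00411), Per1 (3.68-fold; 0.000206) and Cry1 (2.02-fold; 0.00179) were lower and Nr1d2 was 1.82-fold higher (0.0231), with 7.89% called. An F test over CR 2, 4, 12 and 24 h, also added later, called Arntl (0.00275), Per1 (0.00964), Per2 (0.0282), Cry1 (0.0024) and Nr1d2 (0.00355), and 2.7% of all probe sets. All of these comparisons with late CR share its 8 arrays. In each of them, as in the F test, hour of day and time under restriction differ together and cannot be told apart.

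**Figure D3:**
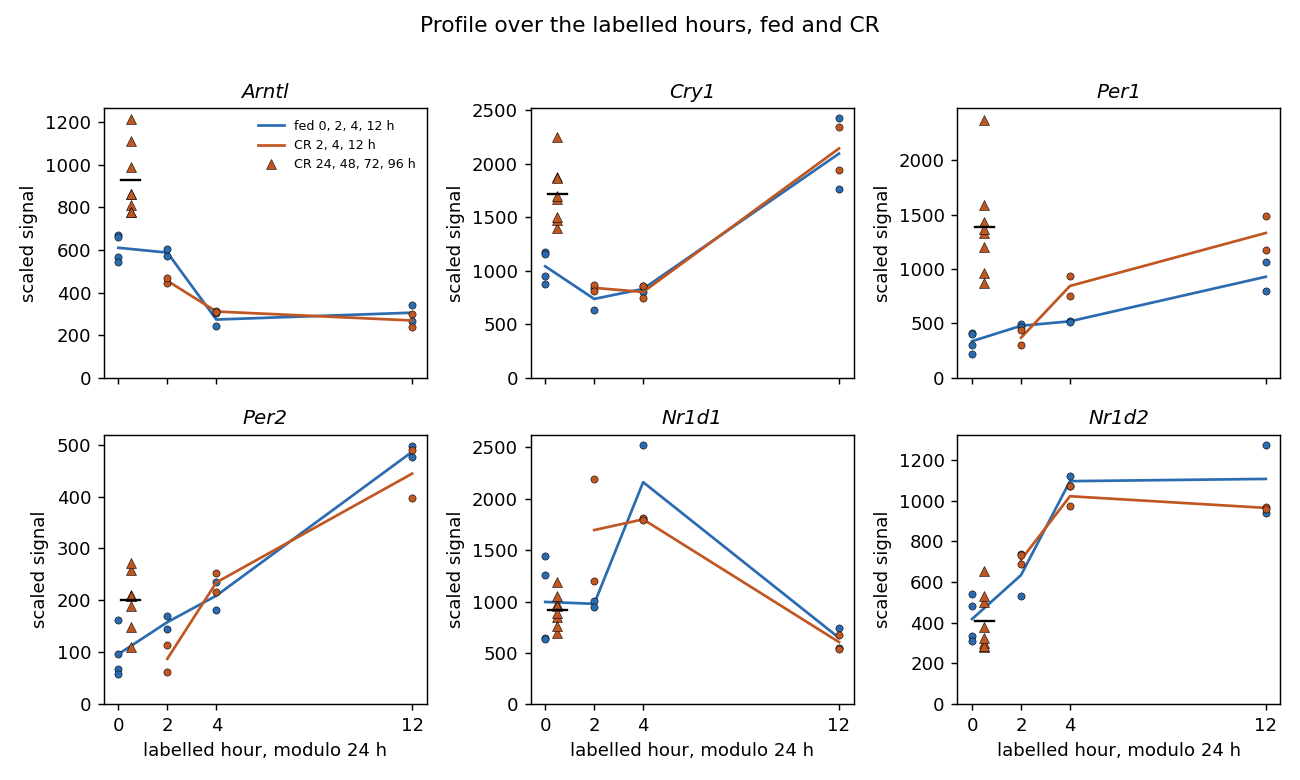
Signal of the 6 core clock genes that varied most (vertical axis, linear from 0) against labelled hour within a day (horizontal axis, 0 to 12 h), as group means joined by lines with 1 point per array, blue fed and orange CR; CR 24, 48, 72 and 96 h are orange triangles beside 0 h, whose time of day they share, with their mean as a black bar. There is no CR 0 h group. Arntl at 4 and 12 h of both diets is lower than at fed 0 h, and the Per1 triangles, at 873 to 2371, lie above the fed 0 h points.

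The step from the 0 h time of day to 12 h was compared between diets, as the difference of the 2 steps (fed minus CR). For lack of a CR 0 h group, the CR step was CR 12 h minus late CR. CR 12 h had less time under restriction than late CR. A difference of the steps therefore cannot be assigned to the hour of day or to the duration of restriction. No member passed (0.0806% of all probe sets called), and 5 had an unadjusted limma p under 0.05 (Arntl, Clock, Per1, Per2 and Cry1). For Per1 the step was larger in fed mice by 1.5 log2 units (95% interval 0.74 to 2.27; adjusted p = 0.141), and for Arntl it was 0.77 (0.18 to 1.37; 0.416), with a deeper fall under CR. For Nr1d1 and Nr1d2 the differences were 0.06 and 0.12, with intervals of −0.84 to 0.97 and −0.57 to 0.81. With number 1 as the only fed 0 h control, Per1 (1.83; 0.001) and Arntl (0.90; 0.0317) passed. With number 2 as the only control, neither did (1.17 and 0.116 for Per1, 0.64 and 0.353 for Arntl).

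**Figure D4:**
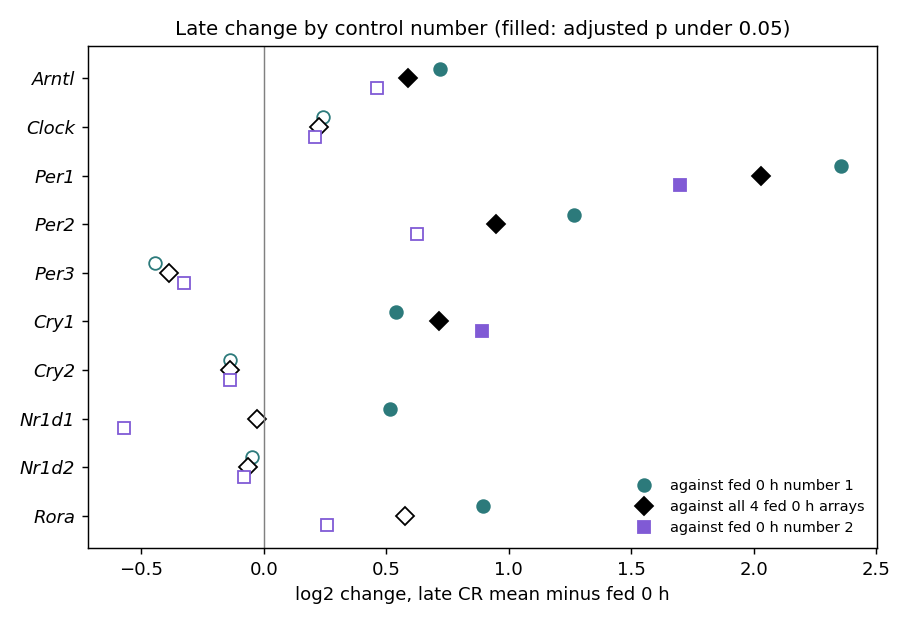
Log2 change of each core clock gene in the late CR mean (horizontal axis) against fed 0 h number 1 alone, all 4 fed 0 h arrays and number 2 alone, 1 symbol per control, filled where the adjusted p was under 0.05. Per1 and Cry1 stay right of 0 with each control, from 1.70 to 2.36 and from 0.54 to 0.89, and Nr1d1 lies on either side of 0, at 0.52 and −0.57.

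Over the 11 group means, the members' log2 levels moved together or apart as follows, given as a description, since group means that share hours, diet and signal range are not independent points. Arntl and Clock had r = 0.80, Per1 and Cry1 0.79, Cry1 and Cry2 0.78, and Per1 and Per2 0.63. Arntl and Nr1d2 had r = −0.90, the lowest of all pairs, and Cry1 and Nr1d1 −0.78. Of all other genes tested, the closest to Arntl were Pex11a (r = 0.94) and Eln (0.93), to Per1 Ppl (0.97) and Tnfrsf21 (0.96), to Per2 Wee1 (0.96) and Naa60 (0.94), and to Cry1 Cyp2b10 (0.94) and A4galt (0.93). Closest to Nr1d1 were Ctsz (0.91) and Cxcr4 (0.90) and to Nr1d2 Tspan4 (0.95) and Bhlhe40 (0.94). For Clock they were Snapin (0.88) and Efs (0.87), for Per3 Erlin1 (0.87) and Gnrh1 (0.85), for Cry2 S1pr1 (0.94) and Desi1 (0.89), and for Rora F2r (0.95) and Mtm1 (0.89). Wee1, a kinase that holds cells before mitosis, and Bhlhe40, an E-box repressor, are themselves in the list of further clock genes.

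That list, of clock output factors, kinases, ubiquitin ligases and cofactors, had 20 genes tested of 23 on the array. In the late CR mean 1 rose and 1 fell, where 10.1% of all genes rose and 8.57% fell, with a median log2 change of 0.28 against 0.00 over all genes. Nampt, the rate-limiting enzyme of NAD salvage, rose 1.59-fold (adjusted p = 0.00597), from 721 ± 188 to 1145 ± 265. Dbp, a D-box activator driven by E-boxes, was an estimated 1.98-fold lower (0.00878), a lower bound with respect to the floor only. Its signal was 164 ± 38.7 at fed 0 h and 46.9 ± 27.7, under the floor, at late CR. Tef, a D-box activator of the same family, was 2.12-fold higher at fed 12 h than at fed 0 h (0.0459), the only 1 of the 20 called there (1.02% of all genes rose and 0.981% fell), with a median of 0.26 against −0.04. At CR 12 h against late CR Tef was higher by 2.34-fold (0.018) and Noct, which encodes the rhythmic output protein nocturnin and is named after its values were seen, lower by 2.04-fold (0.0428), where 0.315% of all genes were higher and 1.14% lower. In the early CR mean 0 of 20 passed, as did 0 of 20 in the difference between diets. Between the fed 0 h numbers 1 was higher and 10 were lower in number 1, with a median of −0.63, where 20.2% of all genes were higher and 21.2% lower.

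Because Per1 is a direct glucocorticoid target, it was set beside the list of genes that these hormones induce, a list chosen with these results known and holding Per1 itself. In the late CR mean 14 of 14 tested genes of that list rose, with a median log2 change of 1.32, against 10.1% of all genes. At fed 12 h against fed 0 h 3 of 14 rose and 0 fell (1.02% and 0.981% of all genes), with a median of 0.26. In the early CR mean 0 of 14 passed, with a median of 0.34 (0.0175% of all genes in each direction). Between the fed 0 h numbers, the control here, 5 of 14 were lower in number 1 and 0 higher (21.2% and 20.2% of all genes). The log2 change of Per1 was 2.03 in the late CR mean, 1.49 at fed 12 h and 0.27 in the early CR mean. Between the fed 0 h numbers it was −0.66 (number 1 minus number 2, limma adjusted p = 0.0521). Since the list was chosen with these results known, its counts cannot test an effect of these hormones. The cause of the Per1 rise was not tested.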

How the data were processed

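Per the deposited tables, the authors' values were intensities on a linear scale, 1 per probe set and array, with the same trimmed mean on all 24 arrays; the sources used here name no software for them. After 66 control probe sets were left out, arrays were brought to a common median, signals below the 25th percentile (80.37) were set to it, and log2 was taken. Of 12422 probe sets, 7440 reached their array's median on at least 2 arrays. Means of 11 groups were fitted with limma 3.58.1 in R 4.3.3 (eBayes with trend, 13 residual degrees of freedom), and contrasts adjusted by Benjamini-Hochberg over 7440. The procedure was tested on simulated data with independent noise on each array. That test does not cover repeat arrays of 1 RNA or the differences between the fed 0 h numbers. Groups and hours came from the labels. One array of another platform, whose title and description disagree, was not used. Genes were named from the platform annotation.

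The members, lists and comparisons were chosen with earlier results of these data known. All members are described, with the 2 genes most like each over group means and the further clock genes called at late CR or fed 12 h. Alternative settings changed the scaling, the floor, the filter, the variance model, the weighting of arrays, the groups fitted, the letters, the controls and the signal range, or left out each array in turn. Letters a and b showed no consistent pairing of the arrays of different groups (median r = 0.01 over 45 pairs of groups, range −0.19 to 0.118). Of these pairs, 1 was above 0.1 and 2 were below −0.1. With mostly 2 arrays a group, their number limits the precision.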

Additional observations from a re-analysis of the deposited data

How the results depend on the processing

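The late CR count of 4 genes was 2 with array weights, 2 with only the groups compared in the fit, 1 with letters averaged, 2 with fed 0 h number 2 alone and 2 in the low signal range alone. It was 6 with number 1 alone (Rora and Nr1d1 gained), 5 without the intensity trend (Rora) and 5 in the high signal range alone (Nr1d1). The fed 12 h count of 5 was 3 with array weights, 0 with only the groups compared and 0 with letters averaged, and the CR 12 h count of 2 was 0 with letters averaged and 3 (Per2 gained) with array weights, without the trend and in the high signal range alone. The fed 12 h count was 6 with number 2 alone (Nr1d1 gained). The difference between diets went from 0 genes to 2 with number 1 alone and to 2 in the high signal range alone (Arntl and Per1 both times). With each array left out in turn, the late count was 2 to 5 (2 without fed 0 h 1b), the fed 12 h count 1 to 5 (1 without fed 12 h 1a), the CR 12 h count 1 to 2 (1 without either CR 12 h array), and the early count and the difference between diets 0 to 0.

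Per1 at late CR was called in 15 of 15 alternatives, at log2 changes of 1.12 to 2.36, and Cry1 in 14 of 15. Per2 at late CR reversed to −0.38 with fed 2, 4 and 12 h as control, which also made Nr1d2 a called fall (−1.22, adjusted p = 3.39e-05). This control differs from late CR in time of day. From fed 0 h to fed 2, 4 and 12 h, the log2 changes were 0.65, 1.05 and 2.28 for Per2. For Nr1d2 they were 0.62, 1.43 and 1.43. The cause of these hour differences was not tested. With the letter as a replicate block the counts were 4, 0, 5, 2 and 0, and it changed no call. Over all probe sets, letters averaged left 27 called at late CR against 1346. The low signal range cannot form the 12 h comparisons, and the array weights stopped before full convergence.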
